A study of Rattus norvegicus with 60 samples.

Results

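The 5 genes described here are those of the rat dorsal root ganglion whose transcript levels lay higher in every library from rats injected with complete Freund's adjuvant (CFA) than in every library from untreated rats. They are 5 of 23918 Ensembl genes in the mRNA count files, and 5 of 15124 that passed a filter on low counts. They are ENSRNOG00000006360, ENSRNOG00000006151, ENSRNOG00000005154, ENSRNOG00000033226 and ENSRNOG00000053141, and since the files and the reference table pair no identifier with a gene name, no name or function is given for any of them. They were chosen by this separation of the 2 groups itself, in CPM, which are counts divided by the size of the library, scaled here by TMM, a correction for differences in library composition. Differences between CFA and control are therefore a description of the choice. Where the genes are counted among those past the threshold of a fit across all genes, that count is background and no independent evidence of a difference.

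The rats were of the SD stock, and 2 groups were used. The 10 control libraries came from rats with no treatment. The 10 CFA libraries came from rats given 0.1 mL CFA under the skin of 1 foot. The labels give neither the side of the ganglia, the time after injection, the sex and age of the rats nor whether ganglia were pooled, and the tissue could not be checked against marker genes, because identifiers carry no names.

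Sensory neurons have their cell bodies in the dorsal root ganglia and carry touch, temperature and pain signals from skin and muscle to the spinal cord. Satellite glia, Schwann cells, resident macrophages, fibroblasts and vessels surround them. CFA holds dead mycobacteria in an oil emulsion, and its injection into a paw is a common model of lasting inflammation in which the animals become more sensitive to heat and touch. The ganglia themselves lie beside the spine, away from the inflamed skin.

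Total counts per library ran from 15607906 to 18950668 in controls and from 16843110 to 21611397 in CFA. On the first principal component of all genes, which carried 40.5% of the variance, CFA 3 lay apart at -107. The most alike libraries of any group, CFA 9 and CFA 10, still differed by a chi-square of 9.97 per gene, where sampling noise alone gives about 1. All 20 libraries were therefore kept as separate samples, which does not show that each came from a different rat.

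ENSRNOG00000006360 was 6.17-fold higher in CFA libraries, by the ratio of mean CPM. Its level in controls ran from 0.306 CPM through a median of 0.619 to 1.22 CPM, and in CFA from 2.997 CPM through a median of 3.84 to 7.19 CPM. The group means were 0.674 ± 0.294 and 4.16 ± 1.19 CPM (SD, n = 10 each). Behind these levels stood 5 to 19 counts per control library and 52 to 120 per CFA library. CFA 5 was the highest, at 7.19 CPM, with CFA 8 next at 5.04 CPM, and the remaining CFA libraries lay close together between 2.997 and 4.08 CPM. The lowest CFA library, CFA 10, stood at 2.46 times the level of the highest control, control 4.

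ENSRNOG00000006151 showed the widest difference of the 5, at 12.0-fold. It ran from 0.190 CPM through a median of 1.03 to 2.85 CPM in controls, and from 9.04 CPM through a median of 13.1 to 29.5 CPM in CFA. The means were 1.24 ± 0.787 and 15.0 ± 6.04 CPM (SD, n = 10 each). The lowest control was control 5 with 3 counts, and the highest was control 3 with 49. As with ENSRNOG00000006360, CFA 5 and CFA 8 were the highest of their group, at 29.5 and 20.1 CPM. CFA 4 was the lowest, at 3.17 times the highest control. Set against the control mean, single CFA libraries lay between 7.28-fold and 23.7-fold higher.

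ENSRNOG00000005154 was 3.95-fold higher in CFA, and of the 5 it varied the most among CFA libraries. Controls ran from 0.442 CPM through a median of 1.30 to 1.81 CPM, and CFA from 2.10 CPM through a median of 4.25 to 8.26 CPM. The means were 1.22 ± 0.390 and 4.83 ± 2.18 CPM (SD, n = 10 each). CFA 8, 10, 5 and 9 were high, at 8.26, 7.20, 6.77 and 6.46 CPM, whereas CFA 1 and CFA 3 were low, at 2.10 and 2.37 CPM. The highest CFA library thus stood at 3.93 times the lowest. The lowest, CFA 1, was only 1.16 times the highest control, control 1.

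ENSRNOG00000033226 had the smallest difference, 2.11-fold, on the least variable background. It ran from 2.02 CPM through a median of 2.83 to 3.67 CPM in controls and from 3.73 CPM through a median of 6.15 to 8.70 CPM in CFA. The means were 2.88 ± 0.639 and 6.07 ± 1.42 CPM (SD, n = 10 each). CFA 4 was the highest and CFA 7 the lowest. CFA 7, with 74 counts, was 1.02 times control 5, the highest control, with 58 counts, a gap smaller than the counting error of either library. Without CFA 7 the lowest CFA library stood a log2 distance of 0.39 above the highest control, against 0.025 with it.

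ENSRNOG00000053141 was 6.88-fold higher in CFA and rested on the fewest reads. Controls ran from 0 CPM through a median of 0.217 to 0.569 CPM, and CFA from 0.922 CPM through a median of 1.70 to 2.42 CPM. The means were 0.230 ± 0.218 and 1.58 ± 0.524 CPM (SD, n = 10 each). No read was counted in controls 1, 2 and 10, which allows up to 0.194, 0.173 and 0.187 CPM, if 3 counts are taken as the limit that a count of 0 allows. Control 3 had 1 count, and the other controls had 3 to 9. CFA libraries had 16 to 49 counts, with CFA 6 the highest and CFA 10 the lowest.

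**Figure D1:**
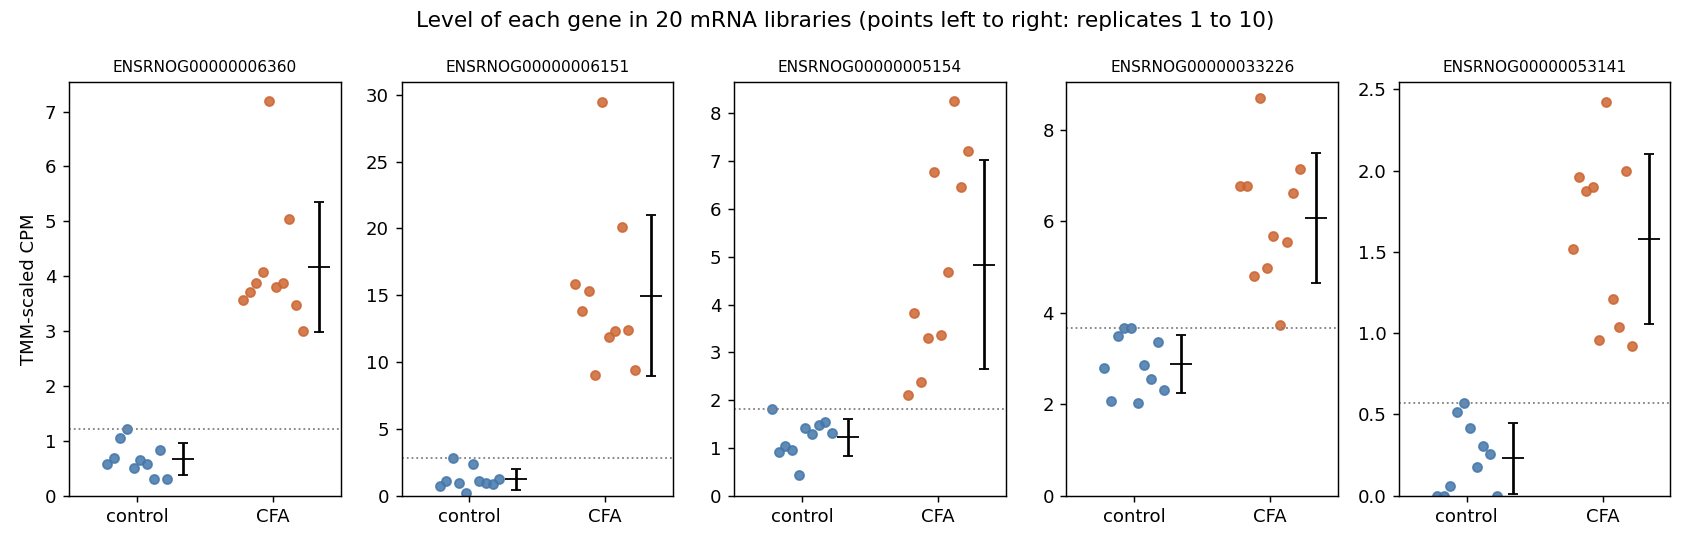
TMM-scaled CPM of each gene in every library, with replicates 1 to 10 from left to right within a group, and the mean ± SD beside the points; the dotted line marks the highest control. The CFA points stay above the line in all panels, by a wide margin for ENSRNOG00000006151 (3.17 times) and hardly for ENSRNOG00000033226 (1.02 times).

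On the log2 scale, the differences fitted by edgeR were 3.58 (SE 0.32) for ENSRNOG00000006151, 2.75 (SE 0.44) for ENSRNOG00000053141 and 2.62 (SE 0.23) for ENSRNOG00000006360. They were 1.98 (SE 0.27) for ENSRNOG00000005154 and 1.08 (SE 0.15) for ENSRNOG00000033226. In a bulk sample, more cells of a type and more RNA per cell cannot be told apart. Markers of other cell types could not be read in these files, so whether the makeup of the ganglia moved with these 5 genes was not tested.

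The share of all tested genes that passed edgeR's threshold with higher levels in CFA was 0.0331%, and the share with every CFA library above every control was also 0.0331%. In both cases these were the 5 genes themselves, so nothing is read from the match. In the opposite direction, 0 of 15124 genes had every CFA library below every control. By edgeR, 0 genes were called lower. At an unadjusted p under 0.05 in edgeR's test, 314 of 15124 genes passed, 136 of them lower. These 314 are fewer than the share of 0.05 that chance alone gives on average, so no lower set is read from them. DESeq2 called 2 genes lower and limma with sample quality weights 2. With edgeR, 1 was called lower without CFA 3 and 1 without CFA 9 and CFA 10.

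The order of the libraries can be counted over the 100 possible pairs of a CFA and a control library. The 5 genes had the CFA library higher in 100 of 100 pairs, and no other tested gene reached more than 96. Between 90 and 99 pairs were found for 11 genes. Just outside the choice lay ENSRNOG00000048976, with 96 pairs in order and 7 of 10 CFA libraries above every control. Its controls ran from 0.124 CPM through a median of 1.41 to 6.23 CPM, and its CFA libraries from 3.94 CPM through a median of 7.28 to 10.1 CPM. Its highest controls overlapped its lowest CFA libraries. ENSRNOG00000055892 also had 96 pairs, with 9 of 10 CFA libraries above every control, and means of 0.525 ± 0.746 CPM in controls and 2.81 ± 1.11 CPM in CFA (SD, n = 10 each). Of genes lower in CFA, ENSRNOG00000057212 came nearest, with 98 of 100 pairs in order. ENSRNOG00000009014 followed with 95, where controls averaged 10.2 ± 1.81 CPM and CFA libraries 8.10 ± 0.526 CPM (SD, n = 10 each).

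**Figure D2:**
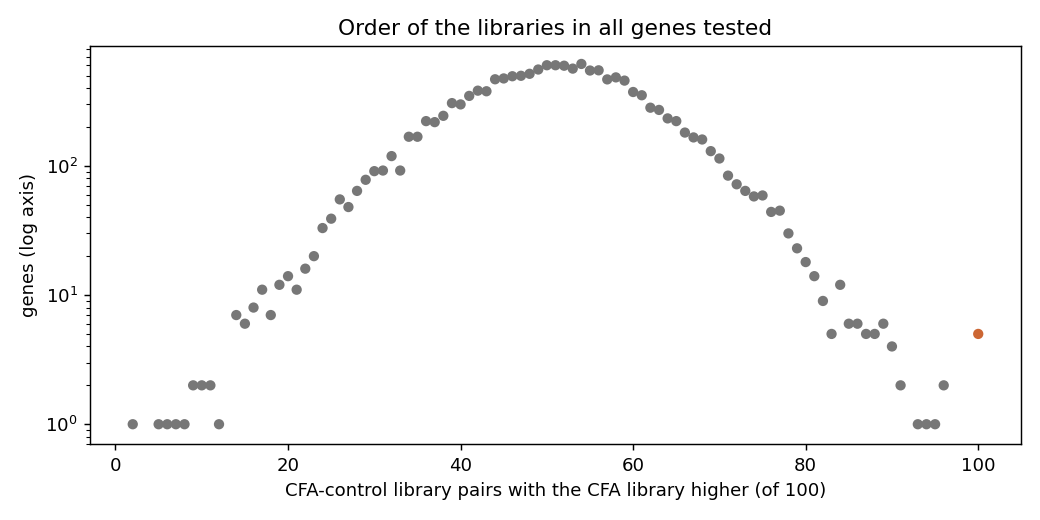
Number of tested genes (log axis) at each number of CFA-control library pairs, of 100, in which the CFA library was higher. The 5 genes lie at 100, in orange, with an empty stretch between them and the next genes at 96.

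The filter kept a gene that reached at least 0.584 CPM, equal to 10 counts in a library of median size, in as many libraries as a group holds. ENSRNOG00000033226 reached this level in all 10 controls and all 10 CFA libraries. ENSRNOG00000006151 and ENSRNOG00000005154 reached it in 9 controls each, ENSRNOG00000006360 in 6 and ENSRNOG00000053141 in 0, and all of them in 10 of 10 CFA libraries. Of all tested genes, 1.38% (209) likewise reached it in every CFA library but not in every control, against 1.92% (290) the other way round. For 4 of the 5 genes the control libraries alone would not have met the filter, 2 of them by a single library, while the CFA libraries alone met it.

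The spread within groups can be set beside the spread that counting alone gives, which was larger in controls, where counts were low. For ENSRNOG00000053141 the coefficient of variation of CPM among controls was 94.9%, where counting alone at its mean count gives 51.3%. Among CFA libraries it was 33.1%, against 18.4% from counting. ENSRNOG00000006151 varied by 63.4% among controls and 40.4% among CFA libraries, with counting giving 21.9% and 6.04%. ENSRNOG00000006360 varied by 43.6% and 28.5%, with 30.0% and 11.4% from counting. These 3 genes thus varied less, relative to their mean, in CFA than in controls. ENSRNOG00000005154 went the other way, at 31.9% among controls and 45.1% among CFA libraries, with 22.1% and 10.5% from counting. ENSRNOG00000033226 varied about equally, at 22.2% and 23.3%, with 14.5% and 9.41% from counting. These differences in spread were not tested.

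The second question was whether the 5 genes vary together within a group. The choice did not use how they vary together. It does bound how low a CFA library and how high a control can lie, so the spread within groups is not free of it. No CFA library lay above the mean of its group for more than 3 of the 5 genes. It was 3 genes in 5 CFA libraries, 2 in 3 and 1 in 2. Among controls it was 4 genes in controls 6, 7 and 9, 3 in 2 libraries, 2 in 4 and 1 in 1, and no library of either group lay above its mean for all 5. CFA 5 was the highest CFA library for ENSRNOG00000006360 and ENSRNOG00000006151, yet for ENSRNOG00000053141 it was at 0.958 CPM, just over the lowest. CFA 10 was the lowest for ENSRNOG00000006360 and ENSRNOG00000053141, but stood at 7.20 CPM for ENSRNOG00000005154 and 7.15 CPM for ENSRNOG00000033226, next to the highest in both. CFA 4 was the highest for ENSRNOG00000033226 and the lowest for ENSRNOG00000006151. Among controls, control 5 was the highest for ENSRNOG00000033226 and ENSRNOG00000053141 and the lowest for ENSRNOG00000006151 and ENSRNOG00000005154.

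**Figure D3:**
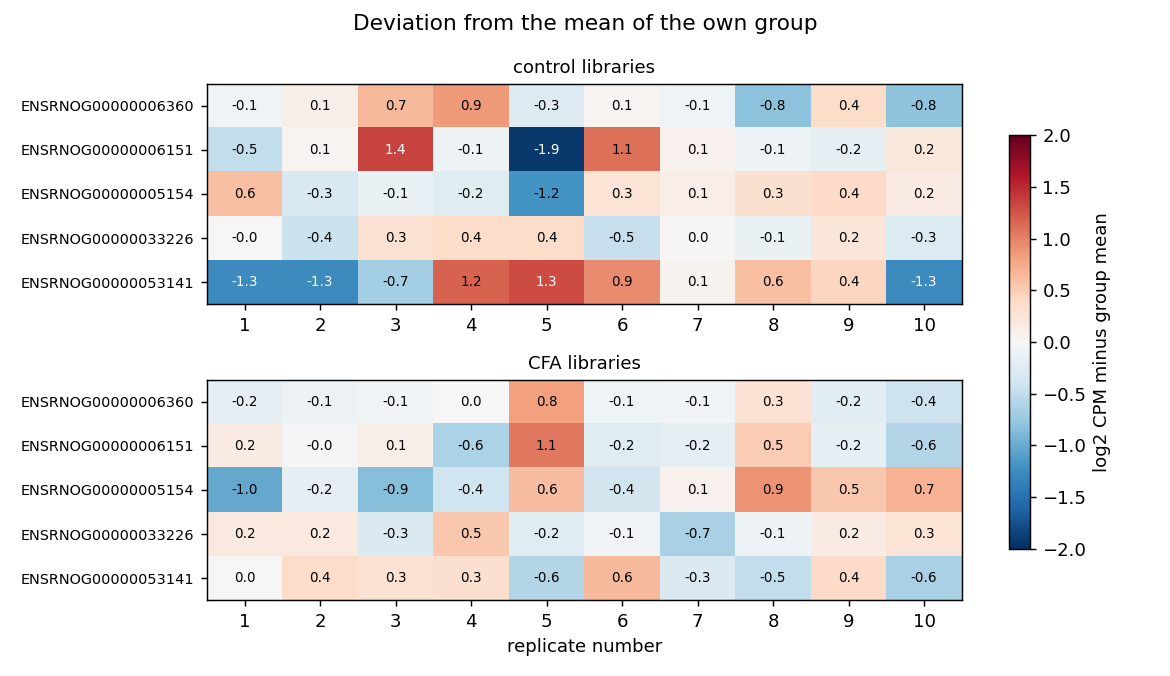
Log2 CPM of each gene in each library minus the mean of its own group (red higher, blue lower; the number is the deviation). Columns do not take one colour from top to bottom: in CFA 5 the upper 3 genes are above their group mean and the lower 2 below it.

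Correlations of log2 CPM were computed for the 10 pairs of genes within each group, 20 relations in all. In CFA libraries 4 pairs were positive and 6 negative, with a median Pearson's r of -0.22 and a range from -0.62 to 0.84. In controls 5 were positive and 5 negative, with a median of 0.024 and a range from -0.39 to 0.51. By a two-sided permutation test with Benjamini-Hochberg adjustment over the 20 relations, 0 passed the threshold of 0.05 with Pearson's r and 0 with Spearman's rho. The lowest adjusted p-values were 0.0888 and 0.724. With 10 libraries a group, values that miss the threshold do not show that the genes vary independently. Low counts limit the controls further, since counting error can hide a relation. ENSRNOG00000053141 had only 38 counts over all controls, and 0 counts in 3 of them.

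The highest was that between ENSRNOG00000006360 and ENSRNOG00000006151 in CFA libraries, with r = 0.84 (p = 0.00444, adjusted p = 0.0888, permutation test, n = 10) and rho = 0.38 (p = 0.280, adjusted p = 0.794). Without CFA 5 and CFA 8, the libraries farthest from the median of ENSRNOG00000006360, r was 0.18, and it was 0.59 without CFA 5 alone, so the relation rests on these libraries. Without CFA 4 it was 0.94 and passed the threshold (adjusted p = 0.0230, permutation test). That was the only 1 of 20 runs with a single library left out to pass. In 10 of these runs the library was a control, which changes this r only through scaling. The adjustment does not cover the choice among those runs. In controls the same pair had r = 0.28 and rho = 0.18 (permutation p = 0.446 and 0.633, adjusted p = 0.568 and 0.813). The most negative was between ENSRNOG00000005154 and ENSRNOG00000053141 in CFA libraries, with r = -0.62 (p = 0.0583, adjusted p = 0.555, permutation test) and rho = -0.52 (p = 0.133, adjusted p = 0.724). It was -0.68 without CFA 1 and CFA 8, the farthest from the median of ENSRNOG00000005154. In controls the highest was between ENSRNOG00000006151 and ENSRNOG00000005154, with r = 0.51 (p = 0.146, adjusted p = 0.555, permutation test) but rho = -0.055 (p = 0.891, adjusted p = 0.898). It was -0.14 without controls 5 and 3, the farthest from the median of ENSRNOG00000006151. It was -0.32 without control 5 alone and 0.67 without control 3 alone, so it rests on control 5.

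**Figure D4:**
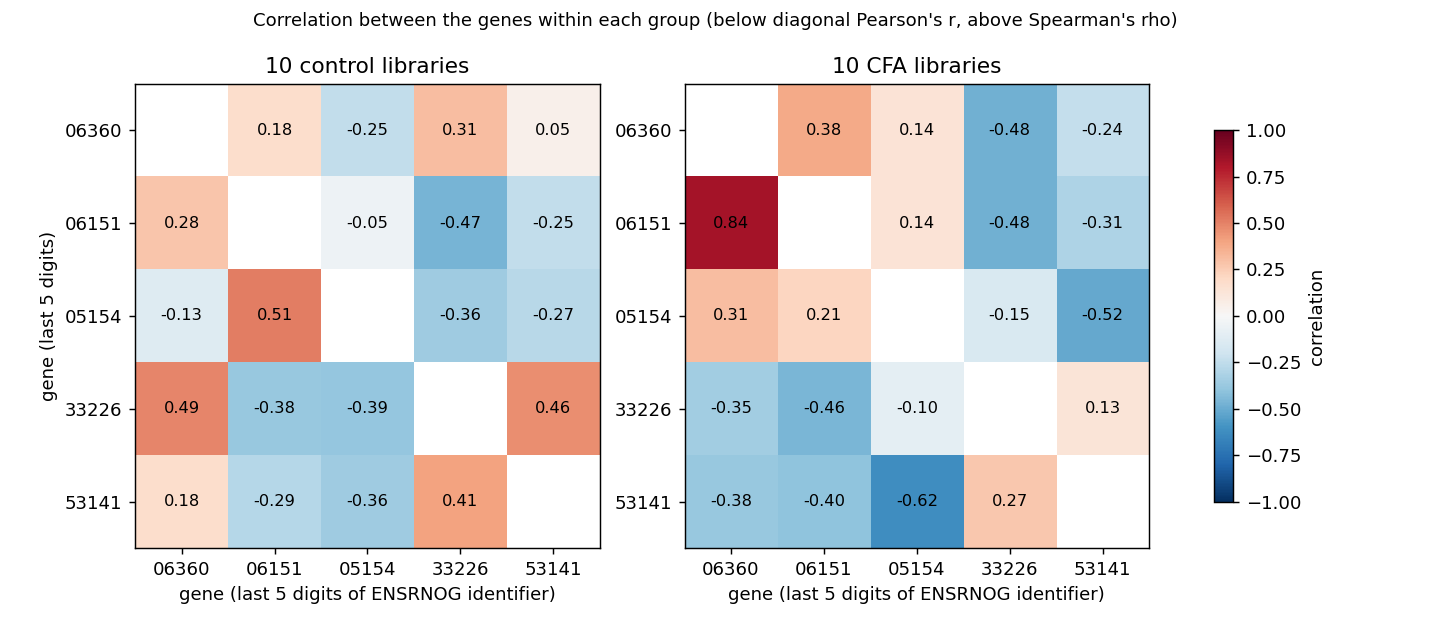
Pearson's r (below the diagonal) and Spearman's rho (above it) between the 5 genes in the 10 control and the 10 CFA libraries, each gene shown by the last digits of its identifier. The one dark cell is ENSRNOG00000006360 with ENSRNOG00000006151 in CFA, at r = 0.84, whose rho is 0.38.

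The levels were also set beside measures of the whole library. Within groups, 30 relations of the 5 genes with the total count and the first and second principal components were computed, and 0 passed the threshold (lowest adjusted p = 0.580 for Pearson's r and 0.617 for Spearman's rho, permutation test). The highest was between ENSRNOG00000053141 and the first component in controls, with r = 0.70 (p = 0.0193, adjusted p = 0.580, permutation test) and rho = 0.69 (p = 0.0311, adjusted p = 0.617). It was 0.54 without controls 10 and 4. With the second component in controls, the same gene had r = 0.61 (p = 0.0593, adjusted p = 0.818, permutation test), and 0.43 without controls 1 and 3. The most negative was between ENSRNOG00000006151 and the total count in CFA, with r = -0.47 (p = 0.168, adjusted p = 0.818, permutation test) and rho = -0.60 (p = 0.0738, adjusted p = 0.617), and r was -0.28 without CFA 4 and CFA 3. The part of these measures in the difference between groups was not tested.

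Genes with the most similar pattern were sought among 14546 or 14547 tested genes with a mean of at least 1 CPM, by Pearson's r over the 20 libraries after each group's own mean was subtracted. The libraries are shared by all these genes, and with so many genes compared the highest r is large by construction, so the values only describe. For each of the 5 genes, many other genes followed its variation more closely than the closest of the other 4 did. The closest of the 4 ranked 290 for ENSRNOG00000006360, 303 for ENSRNOG00000006151, 470 for ENSRNOG00000005154, 2133 for ENSRNOG00000033226 and 2600 for ENSRNOG00000053141. The rank that the closest of any 4 genes would take was not computed. These ranks therefore do not show that the 5 genes are unlike each other. The highest r to any gene was 0.74 for ENSRNOG00000006360, 0.78 for ENSRNOG00000006151, 0.72 for ENSRNOG00000005154 and 0.69 for ENSRNOG00000033226. The genes behind those highest values had log2 differences between CFA and control of 0.049, -0.040, -0.17 and 0.49.

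ENSRNOG00000053141 had the highest values, with an r of 0.86, 0.85 and 0.84 to its 3 most similar genes and an r over 0.7 to 13 genes, where the other 4 had 0 to 5. The most similar genes also had higher means in CFA, with log2 differences of 0.91 (SE 0.34), 1.01 (SE 0.38) and 1.86 (SE 0.47). The last of them is ENSRNOG00000048976, described above as just outside the choice. Its r to ENSRNOG00000053141 was 0.93 within controls and 0.15 within CFA libraries. For the other two, r was 0.91 and 0.91 within controls and 0.60 and 0.34 within CFA libraries. ENSRNOG00000048976 was at 0.389, 0.230, 0.641 and 0.124 CPM in controls 1, 2, 3 and 10, where ENSRNOG00000053141 had 0, 0, 1 and 0 counts. It was highest in controls 4 and 5, at 6.23 and 4.87 CPM, where ENSRNOG00000053141 had 8 and 9 counts, its highest among controls. Whether the 2 genes share reads could not be checked, since neither their sequence nor the counting rule is given in the sources used here.

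**Figure D5:**
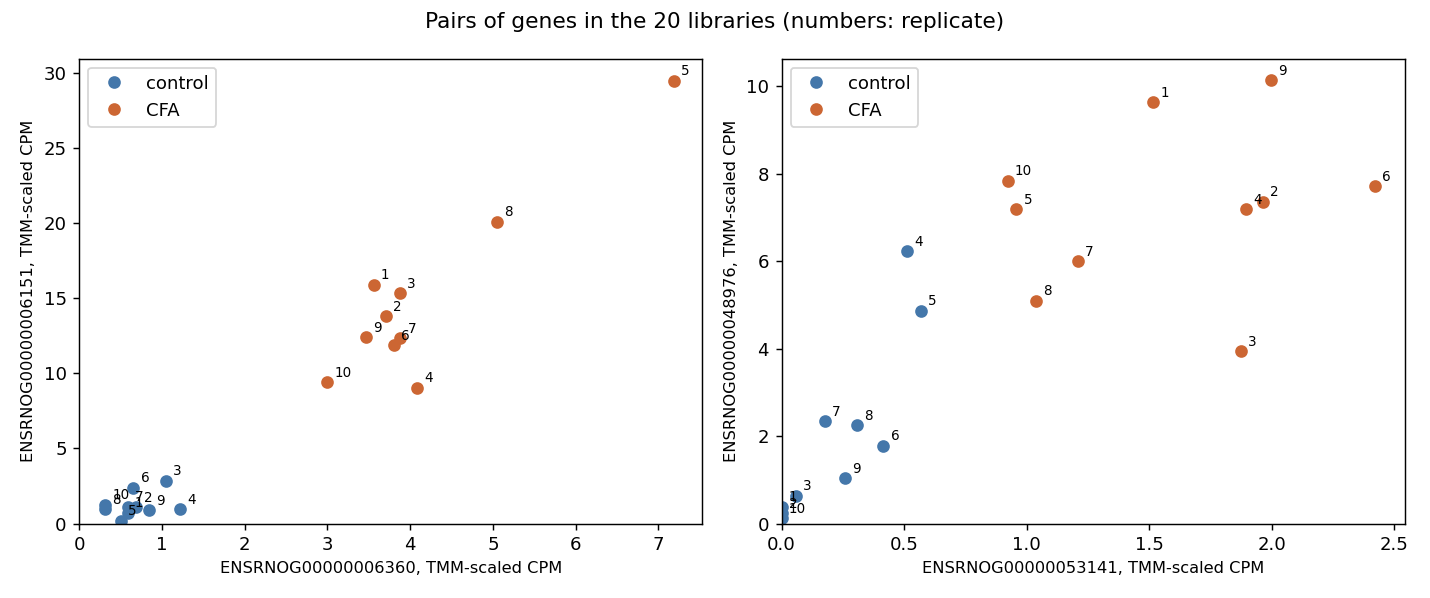
TMM-scaled CPM of ENSRNOG00000006151 against ENSRNOG00000006360 (left) and of ENSRNOG00000048976 against ENSRNOG00000053141 (right) in each library, numbered by replicate. On the left CFA 5 and CFA 8 lie apart from the other CFA libraries. On the right, controls higher in one gene tend to be higher in the other, though not along one line, and the CFA libraries scatter. Control 4, at 6.23 CPM, lies above CFA 3, at 3.94 CPM, on the vertical axis.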

How the data were processed

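Dorsal root ganglion mRNA was sequenced in 10 control and 10 CFA libraries, made with poly-A selection and a NEBNext Ultra kit per the labels' protocols. The deposited files hold raw counts per Ensembl gene, per the file headers. The submitters' processing notes name STAR 2.7.0, cutadapt 2.1.0, DESeq2 1.29.0 and the genome build rn4, among others, for the whole series. The counting tool, its use of strand and the annotation release were not given in the sources used here. Values of overlapping genes and of near-identical copies are uncertain for that reason. The small RNA and bisulfite files were not used here.

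Counts were scaled by TMM and fitted with edgeR 4.0.16 in R 4.3.3 (filterByExpr, robust quasi-likelihood F test), CFA against control, adjusted by Benjamini-Hochberg over 15124 genes at 0.05. The SE printed with a log2 difference is not given by edgeR itself. It was taken as the absolute difference divided by the square root of the F statistic. Log2 CPM used a prior count of 2. Correlations were tested by permutation with 100000 resamples. The edgeR step and the permutation test were tested on simulated data. Intervals and limits on counts of 0 cover counting error only. The labels describe 10 pairs of rats without tying library numbers to pairs or libraries to single rats, so p-values measure the spread between these libraries.

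The 5 genes, and the rules for the genes named beside them, were chosen with earlier results of these data known. Named besides them were the genes nearest to complete separation and those with the most similar pattern, with at most 2 further identifiers printed per direction. Gene lists and cell type markers written by symbol were not analysed, because the reference table paired 0 of 23918 identifiers with a symbol. Alternatives were other scalings (RLE, upper-quartile, none), DESeq2 1.42.0, sample quality weights from limma 3.58.1, other filters, a prior count of 0.5, the replicate number as a block, residuals on the first component and depth, and left-out libraries. The second component, and leaving out controls 1, 2 and 3, were added after seeing the data.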

Additional observations from a re-analysis of the deposited data

Results flagged for a closer look

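Of 14 groups of 10 values examined (the CPM of each of the 5 genes, the total count and the first principal component, in each group), 2 held a value far from the rest. For independent values from a normal distribution, chance alone gives about 1 in 20 groups. CPM and component scores need not be such values, so this share is only a rough guide. ENSRNOG00000006360 stood at 7.19 CPM in CFA 5, where the next CFA library was at 5.04 CPM, so the gap took up 0.511 of the whole range against a critical 0.466. CFA 3 stood at -107 on the first principal component of all genes, with the next CFA library at -34.7 and a gap of 0.494 of the range.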

How the results depend on the processing

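The 5 genes stayed separated, and their log2 differences kept their direction and moved by less than 1 SD between replicates, in every alternative in which they were tested. Libraries left out or filters changed cannot undo a separation that held in all 20 libraries, save through small shifts in scaling. Those runs are therefore no test of it. Under the filter of at least 1 CPM in 10 libraries, ENSRNOG00000053141 was not tested and 4 remained. The log2 differences ranged from 3.41 to 3.80 for ENSRNOG00000006151, 2.27 to 2.995 for ENSRNOG00000053141, 2.50 to 2.75 for ENSRNOG00000006360, 1.81 to 2.14 for ENSRNOG00000005154 and 1.01 to 1.14 for ENSRNOG00000033226. For ENSRNOG00000053141, 2.75 with all libraries became 2.29 without controls 1, 2 and 3. It became 2.27 without CFA 3 and controls 1, 3 and 10. The controls left out in these runs had 0 or 1 counts of this gene. Over all genes, edgeR called 5 and the number with separated groups was 5. With sample quality weights 9 genes were called, and with the replicate block 2, ENSRNOG00000006360 and ENSRNOG00000006151. The cause was not tested. The correlation of the deviations of same-numbered libraries ran from -0.36 to 0.56, with a median of -0.097. It was over 0.1 in 3 of 10 pairs, and 4 of 20 libraries correlated best with their own number. These values do not tell whether equal numbers mark pairs of rats, since paired rats need not share such deviations. Leaving out single libraries gave 5 to 6 calls and 5 to 6 genes with separated groups. The 5 genes were among them each time, which for the separated groups follows from how they were chosen. Without CFA 3 and controls 1, 3 and 10, 10 genes had separated groups. Fewer libraries were compared there, and the reason for the higher number was not tested. The median r between the genes stayed between -0.32 and -0.025 within CFA and between -0.073 and 0.14 within controls. The r between ENSRNOG00000006360 and ENSRNOG00000006151 in CFA was 0.59 to 0.94 with single libraries left out. It passed the threshold in 1 of these 20 runs, without CFA 4 (r = 0.94, adjusted p = 0.0230, permutation test). The 10 runs without a control change this r only through scaling. The same r also passed as residuals on the first component and depth (r = 0.91, adjusted p = 0.0216, permutation test). That test treats residuals as independent values, which a fit to the same libraries does not leave, so its p-value may be too low. CFA 5 was not left out there. The r between ENSRNOG00000006151 and ENSRNOG00000005154 in controls was -0.32 without control 5, and up to 0.67 with other single libraries left out. Depth limits ENSRNOG00000053141 the most, at 38 counts over all controls.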
